A study of Mus musculus with 13 samples.

Results

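TCR-induced immediate early genes are genes that thymocytes switch on within minutes of a signal through the T cell receptor (TCR), from factors already present in the cell. The 10 genes described here were taken by symbol from the 43629 genes of the expression table, namely Egr1, Egr2, Egr3, Nr4a1, Nr4a3, Fos, Jun, Junb, Klf6 and Cd69, and every one of them was found. RNA sequencing covered 13 libraries. There were 5 thymic lymphomas from Atm-/- mice, which lack the ATM kinase of the DNA damage response, on the 129S6/SvEv strain. Another 5 thymic lymphomas came from Rag2c/c p53-/- mice, on a mixed background of C57BL/6 and 129S6/SvEv. These mice lack p53 and carry a RAG2 protein, a subunit of the V(D)J recombinase, that is truncated at its C terminus. The controls were 3 thymuses of wild type (WT) C57BL/6 mice without a lymphoma, whose libraries were made for an earlier series and used again. The ages of the mice are not given in the sources used here.

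In thymocytes, TCR engagement activates the RAS and ERK kinases, protein kinase C and calcineurin, and these act through factors such as SRF, ELK, CREB and NFAT that are already bound or ready to bind at the promoters of immediate early genes. Several products of these genes are transcription factors. EGR proteins are zinc finger factors needed for positive selection, NR4A proteins are orphan nuclear receptors linked to negative selection, and FOS and JUN proteins pair to form AP-1. Transcripts of the class are short-lived, and their amounts follow the current signal closely. Cd69, a lectin-like surface protein that keeps activated cells in the tissue, is the usual flow cytometry marker of a thymocyte that has received a TCR signal.

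Values are normalized counts on the scale of the table, in which the libraries have nearly equal totals, between 19788898 and 21591289. The estimated number of reads behind them was 6.65 to 39.6 M reads in WT thymus, 9.23 to 23.6 M reads in Atm-/- lymphomas and 6.37 to 24.7 M reads in Rag2c/c p53-/- lymphomas. The levels of the altered genes were read first. Atm stood at 1559 to 2274 normalized counts in WT thymus, at 208 to 732 in Atm-/- lymphomas and at 439 to 1315 in Rag2c/c p53-/- lymphomas. Trp53, which encodes p53, stood at 2018 to 5461 in Rag2c/c p53-/- lymphomas against 4387 to 6341 in WT thymus, and Rag2 stood at 260 to 790 against 4199 to 5409. Counts over a whole gene do not show a deleted or truncated stretch, so these values do not check the p53-/- or Rag2c/c alleles. Atm was below every WT thymus in the Rag2c/c p53-/- lymphomas too, and their range overlapped that of the Atm-/- lymphomas. Its level therefore does not check the Atm-/- allele either. The tissue was checked with 8 T cell markers (Cd3d, Cd3e, Cd3g, Thy1, Lck, Lat, Zap70 and Cd2). Their summed level was 77005 to 121715 in WT thymus, 72682 to 136425 in Atm-/- lymphomas and 66834 to 137203 in Rag2c/c p53-/- lymphomas, and 0 of the 8 were called against WT in either group. In Rag2c/c p53-/- lymphomas 2 of the 8 had an unadjusted limma p under 0.05. Cd2 (546 to 2945, against 4143 to 4973) and Cd3g (3621 to 6775, against 7179 to 11077) were below every WT thymus there, while the other markers overlapped WT thymus.

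Most of the 10 genes were lower in the lymphomas than in WT thymus. In Atm-/- lymphomas 8 of the 10 fell, namely Egr1, Egr2, Egr3, Nr4a3, Jun, Junb, Klf6 and Cd69, and 0 rose. In Rag2c/c p53-/- lymphomas 6 of the 10 fell, namely Egr1, Egr2, Egr3, Nr4a3, Klf6 and Cd69, and 0 rose. The 4 steepest differences in each comparison were those of Egr2, Egr3, Nr4a3 and Cd69, at between 17.4-fold and 44.1-fold. A gene was called changed where limma's moderated test on log2(value + 1), adjusted over all 15872 genes tested by the Benjamini-Hochberg method, gave a p under 0.05 with a log2 difference of at least 1 in size, and where either group had a mean of 10 or more. All 10 genes passed the filter on low values, which asked for at least 10 normalized counts in at least 3 libraries, and each also had 10 or more in at least 5 lymphomas. Of all genes tested, 29.5% were called in Atm-/- lymphomas against WT thymus, 17% as lower and 12.6% as higher. The share was 23.6% for Rag2c/c p53-/- lymphomas against WT thymus, with 13.9% lower and 9.77% higher. The 10 genes had a median log2 difference of -2.68 for Atm-/- lymphomas and -2.82 for Rag2c/c p53-/- lymphomas, where that of all tested genes was -0.02 in each. The comparisons share the WT thymuses, so their results are given side by side and not as 2 independent observations. Effects of genotype, of strain, of tumor state and of the sequencing series (the WT libraries are older) cannot be told apart here. Every mutant library is a lymphoma and every WT library is a thymus without one. In bulk RNA, fewer cells of a type that express a gene and less RNA per cell cannot be told apart either.

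**Figure D1:**
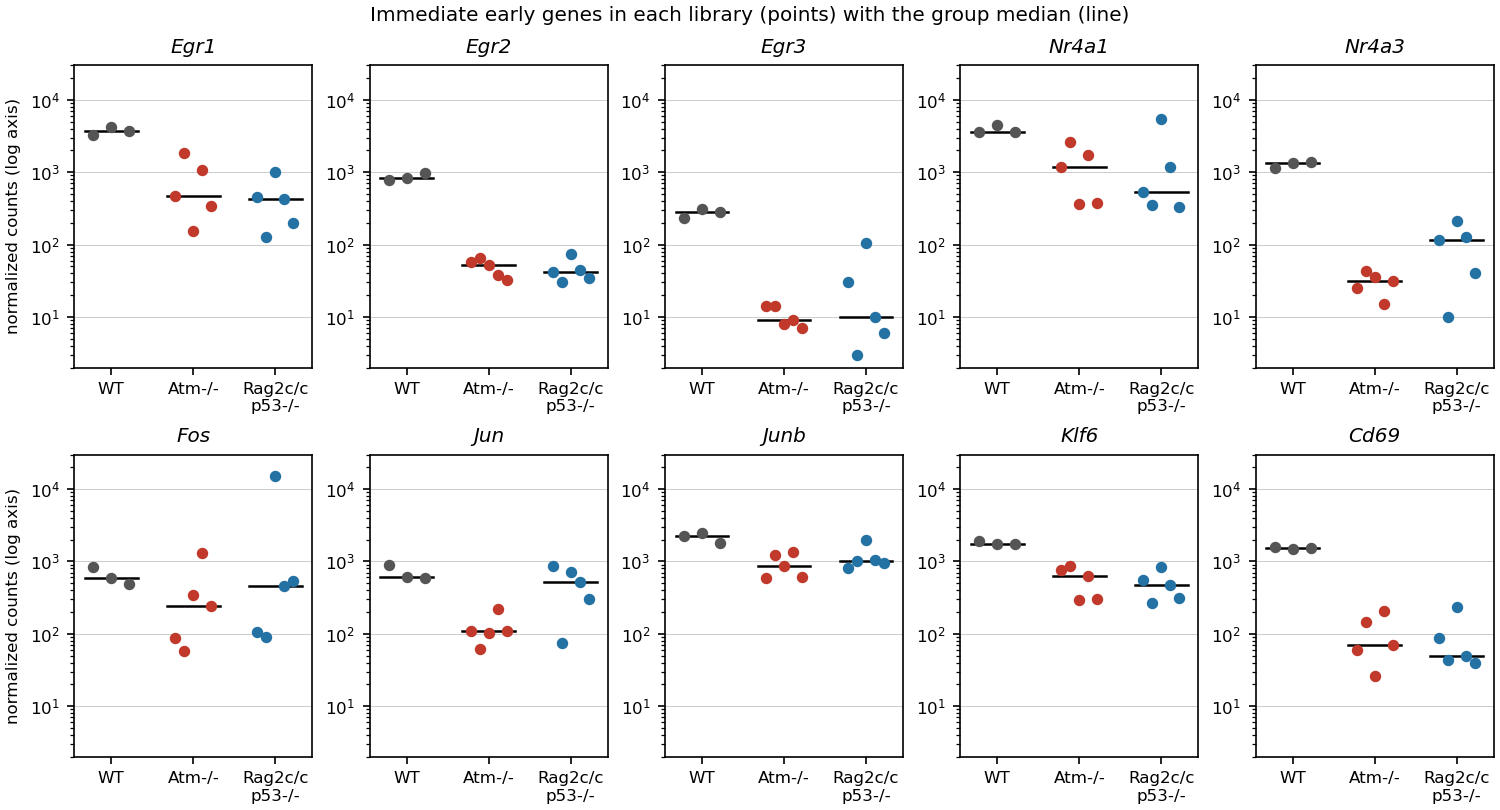
Normalized counts (log axis) of the 10 immediate early genes in each library, with 1 point per library for 3 WT thymuses, 5 Atm-/- lymphomas and 5 Rag2c/c p53-/- lymphomas, and a line at the group median. Egr2 and Cd69 of all 10 lymphomas lie well below the WT thymuses, while Fos overlaps between groups and reaches 15233 in 1 Rag2c/c p53-/- lymphoma.

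The stretches of sequence just before the start sites show what these promoters carry and are printed for genes that fell steeply (Egr2 and Nr4a3) and for genes that overlapped WT thymus in at least 1 lymphoma group (Nr4a1, Fos, Jun and Junb). RefSeq promoter windows on GRCm38.p6 were found for 7 of the 10 genes, which were Egr2, Nr4a1, Nr4a3, Fos, Jun, Junb and Klf6. The sequences read 5′ to 3′ on the strand of the gene and hold up to 250 bases before the start, without bases that lie in an annotated exon. Nr4a1 is shown for chr15:101266596-101266845 on the plus strand, Nr4a3 for chr4:48045055-48045152 on the plus strand and Fos for chr12:85473640-85473889 on the plus strand. Jun is shown for chr4:95052223-95052472 and Junb for chr8:84978749-84978998, both on the minus strand, and Egr2 for chr10:67535249-67535474 on the plus strand. Capitals mark matches on either strand to TGACG, the core of the cyclic AMP response element (CGTCA when read on the other strand). They also mark matches to the related site TGACNTCA and to an EGR site (GCGNGGGCG, or its reverse complement).
Nr4a1: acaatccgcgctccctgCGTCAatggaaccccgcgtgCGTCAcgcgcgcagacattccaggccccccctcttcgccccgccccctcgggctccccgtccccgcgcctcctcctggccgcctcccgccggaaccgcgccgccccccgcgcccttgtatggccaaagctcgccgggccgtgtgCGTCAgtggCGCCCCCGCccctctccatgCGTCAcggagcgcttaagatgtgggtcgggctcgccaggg
Nr4a3: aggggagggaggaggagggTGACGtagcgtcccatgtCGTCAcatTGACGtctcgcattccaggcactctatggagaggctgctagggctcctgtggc
Fos: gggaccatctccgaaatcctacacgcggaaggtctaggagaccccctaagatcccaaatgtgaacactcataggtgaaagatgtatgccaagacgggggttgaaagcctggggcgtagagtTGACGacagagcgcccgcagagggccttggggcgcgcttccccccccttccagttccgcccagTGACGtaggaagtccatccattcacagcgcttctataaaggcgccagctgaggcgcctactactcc
Jun: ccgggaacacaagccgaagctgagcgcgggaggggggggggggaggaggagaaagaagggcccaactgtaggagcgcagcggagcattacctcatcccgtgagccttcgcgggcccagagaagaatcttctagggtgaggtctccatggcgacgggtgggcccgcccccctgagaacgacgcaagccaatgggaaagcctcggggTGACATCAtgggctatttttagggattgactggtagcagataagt
Junb: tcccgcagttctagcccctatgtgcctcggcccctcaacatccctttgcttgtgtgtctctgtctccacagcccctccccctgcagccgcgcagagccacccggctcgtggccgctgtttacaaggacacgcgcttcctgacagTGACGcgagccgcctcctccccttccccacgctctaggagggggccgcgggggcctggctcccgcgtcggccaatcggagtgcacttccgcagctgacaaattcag
Egr2: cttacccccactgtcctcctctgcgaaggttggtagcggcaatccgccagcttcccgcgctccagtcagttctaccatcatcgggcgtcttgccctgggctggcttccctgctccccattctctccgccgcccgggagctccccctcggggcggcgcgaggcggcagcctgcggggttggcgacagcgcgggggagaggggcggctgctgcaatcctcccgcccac
The Nr4a1 stretch held 4 copies of TGACG, at 233, 213, 69 and 40 bases before the start, and 1 EGR site at 60 bases. The Nr4a3 stretch of 98 bases held 3 copies, at 231, 213 and 205 bases before the start, and the Fos stretch held 2, at 129 and 66 bases. Jun had TGACNTCA at 45 bases and Klf6 had it at 119 bases before the start, Junb had TGACG at 106 bases, and the Egr2 stretch had no match to any motif searched. RefSeq has 5 windows for Egr2, of which only the 1 nearest to the gene's start in the table was searched. Of 32817 promoter windows of 250 bases, 17.8% held TGACG, 7.49% held TGACNTCA, 4.70% held the EGR site, 6.75% held the AP-1 site TGANTCA and 1.47% held a CArG box, the element bound by SRF. The last 2 motifs had no match in the 7 stretches. Sites more than 250 bases before the start were not searched, so this does not show that a promoter lacks them. The AP-1 search covered the form TGANTCA only, so the TGACATCA of Jun and Klf6 could count only as TGACNTCA. TGACG and TGACNTCA can share bases where N is G. The matches describe letters only.

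The EGR genes were the most uniform group, with all 3 called lower in each comparison. Egr2, a factor that rises with TCR signal strength, was at 770, 825 and 965 normalized counts in the 3 WT thymuses. It was at 57, 66, 53, 38 and 32 in the 5 Atm-/- lymphomas and at 42, 30, 75, 44 and 34 in the 5 Rag2c/c p53-/- lymphomas. All 10 lymphomas thus lay more than 10-fold below the lowest WT thymus. The log2 difference was -4.13 ± 0.35 (SE) in Atm-/- lymphomas (17.5-fold, limma adjusted p = 2.74e-06) and -4.28 ± 0.35 in Rag2c/c p53-/- lymphomas (19.5-fold, limma adjusted p = 4.34e-06). Each SE here and below uses a spread pooled over all groups, so it is not the precision of a single group. The spread among lymphomas was narrow, at 2.06-fold from lowest to highest in the Atm-/- and 2.5-fold in the Rag2c/c p53-/- group.

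Egr3, another factor of the EGR family, stood at 232, 312 and 285 in WT thymus. The Atm-/- lymphomas had 14, 14, 8, 9 and 7, and the Rag2c/c p53-/- lymphomas 30, 3, 104, 10 and 6. No lymphoma reached WT levels, but 1 Rag2c/c p53-/- lymphoma, replicate 3, stood well above the others. The log2 differences were -4.64 ± 0.82 (limma adjusted p = 0.000595) and -4.12 ± 0.82 (limma adjusted p = 0.00179). Low depth limits the smallest of these values, since the 3 normalized counts of Rag2c/c p53-/- replicate 2 stood for about 1 read. A count of 0 in that library would have allowed up to 10.1 normalized counts (3 reads, counting error only).

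Egr1, the founding member and a direct target of ERK signalling, was among the most abundant at 3246, 4194 and 3739 in WT thymus. Atm-/- lymphomas had 465, 1836, 152, 1083 and 344, and Rag2c/c p53-/- lymphomas 452, 128, 994, 427 and 197. Every lymphoma was below every WT thymus, but the Atm-/- lymphomas differed 12.1-fold among themselves. Egr1 changed by -2.76 ± 0.73 on the log2 scale in Atm-/- (limma adjusted p = 0.00802) and by -3.42 ± 0.73 in Rag2c/c p53-/- lymphomas (limma adjusted p = 0.00281).

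The 2 NR4A genes differed in how they separated the groups. Nr4a3 was at 1146, 1345 and 1400 in WT thymus, at 25, 43, 36, 15 and 31 in Atm-/- lymphomas and at 114, 10, 214, 129 and 40 in Rag2c/c p53-/- lymphomas. The groups did not overlap with WT, and the Atm-/- lymphomas were tightly clustered. The log2 difference was -5.46 ± 0.75 in Atm-/- lymphomas (44.1-fold, limma adjusted p = 0.000102) and -4.25 ± 0.75 in Rag2c/c p53-/- lymphomas (19.0-fold, limma adjusted p = 0.000837). Without Rag2c/c p53-/- replicate 2, the SE in Atm-/- lymphomas was 0.476.

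Nr4a1 (Nur77), the receptor whose reporter mice are used to read TCR signal strength, stood at 3559, 4441 and 3561 normalized counts in WT thymus. Its values in Atm-/- lymphomas were 1183, 2583, 366, 1747 and 378. All of those were below WT. The Rag2c/c p53-/- lymphomas had 536, 351, 5346, 1168 and 331, so that 4 lymphomas were below WT and replicate 3 was above it. Neither difference was called, at -2.02 ± 0.84 in Atm-/- (limma adjusted p = 0.0646) and -2.21 ± 0.84 in Rag2c/c p53-/- lymphomas (limma adjusted p = 0.0531). Without Rag2c/c p53-/- replicate 3, both passed, at -2.02 ± 0.62 (limma adjusted p = 0.019) and -2.88 ± 0.65 (limma adjusted p = 0.00466). They also passed without Atm-/- replicate 2, with limma adjusted p of 0.036 and 0.0441.

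The AP-1 genes differed in their spread. Fos, which varied most of the 10 genes in each lymphoma group (SD of log2 values 1.76 and 2.97), was at 836, 598 and 494 in WT thymus and at 88, 57, 341, 1301 and 241 in Atm-/- lymphomas. It was at 107, 91, 15233, 459 and 541 in Rag2c/c p53-/- lymphomas. The highest lymphoma of each group exceeded every WT thymus, and the lymphomas spanned 22.8-fold and 167-fold against 1.69-fold among WT thymuses. The log2 difference was -1.49 in Atm-/- lymphomas (95% confidence interval -4.45 to 1.47, limma adjusted p = 0.391). It was -0.28 in Rag2c/c p53-/- lymphomas (95% confidence interval -3.23 to 2.68, limma adjusted p = 0.89). These intervals leave room for changes of several-fold either way, so Fos could not be placed above or below WT. Both rest on a spread shared by all groups. Without Rag2c/c p53-/- replicate 3, the difference of Fos in Atm-/- lymphomas was -1.49 ± 0.89 (limma adjusted p = 0.189), also not called. The difference of Fos in Rag2c/c p53-/- lymphomas was -1.49 ± 0.93 without replicate 3 of that group (limma adjusted p = 0.223), 0.29 without replicate 1 and 0.35 without replicate 2.

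Jun, the partner of FOS in AP-1, was at 883, 601 and 589 in WT thymus. It stood at 111, 62, 102, 218 and 111 in Atm-/- lymphomas, all far below WT, and fell there by 2.60 ± 0.64 on the log2 scale (6.06-fold, limma adjusted p = 0.00549). In Rag2c/c p53-/- lymphomas it stood at 869, 74, 709, 515 and 304, with 2 of the 5 inside the WT range and a log2 difference of -0.86 ± 0.64 that was not called (limma adjusted p = 0.307). Junb, a JUN protein that can restrain c-Jun, was at 2256, 2443 and 1795 in WT thymus, at 595, 1215, 876, 1356 and 611 in Atm-/- lymphomas and at 812, 1000, 1991, 1062 and 947 in Rag2c/c p53-/- lymphomas. It fell by 1.29 ± 0.32 in Atm-/- lymphomas (limma adjusted p = 0.00542). In Rag2c/c p53-/- lymphomas its log2 difference of -0.96 ± 0.32 had a limma adjusted p of 0.0295 but missed the threshold of 1 in size. Without replicate 3 of that group, the only one inside the WT range, it was -1.17 ± 0.28 (limma adjusted p = 0.00623) and was called. In the GENCODE annotation used below for exon lengths, Junb overlaps Prdx2 on the opposite strand, which had a mean of 3868 normalized counts. Jun overlaps Junos there, at a mean of 6.0. Junb extends down to chr8:84974484 in that annotation but only to chr8:84976909 in the table. An overlap with Prdx2 in the genes as counted was therefore not shown. The strand setting of the counting is not given in the sources used here, and Prdx2 reads in the Junb values were not checked.

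Klf6, a Kruppel-like zinc finger factor, and Cd69 completed the set. Klf6 was at 1900, 1731 and 1745 in WT thymus, at 770, 852, 295, 632 and 298 in Atm-/- lymphomas and at 558, 263, 836, 477 and 317 in Rag2c/c p53-/- lymphomas, without overlap. The log2 differences were -1.79 ± 0.41 (limma adjusted p = 0.00353) and -1.99 ± 0.41 (limma adjusted p = 0.00239). Cd69 stood at 1602, 1501 and 1555 in WT thymus, at 60, 144, 26, 207 and 69 in Atm-/- lymphomas and at 88, 44, 238, 50 and 40 in Rag2c/c p53-/- lymphomas. The WT thymuses agreed to within 1.07-fold and every lymphoma was more than 6-fold below the lowest of them. The log2 differences were -4.26 ± 0.65 (19.2-fold, limma adjusted p = 0.000221) and -4.42 ± 0.65 (21.4-fold, limma adjusted p = 0.000258).

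**Figure D2:**
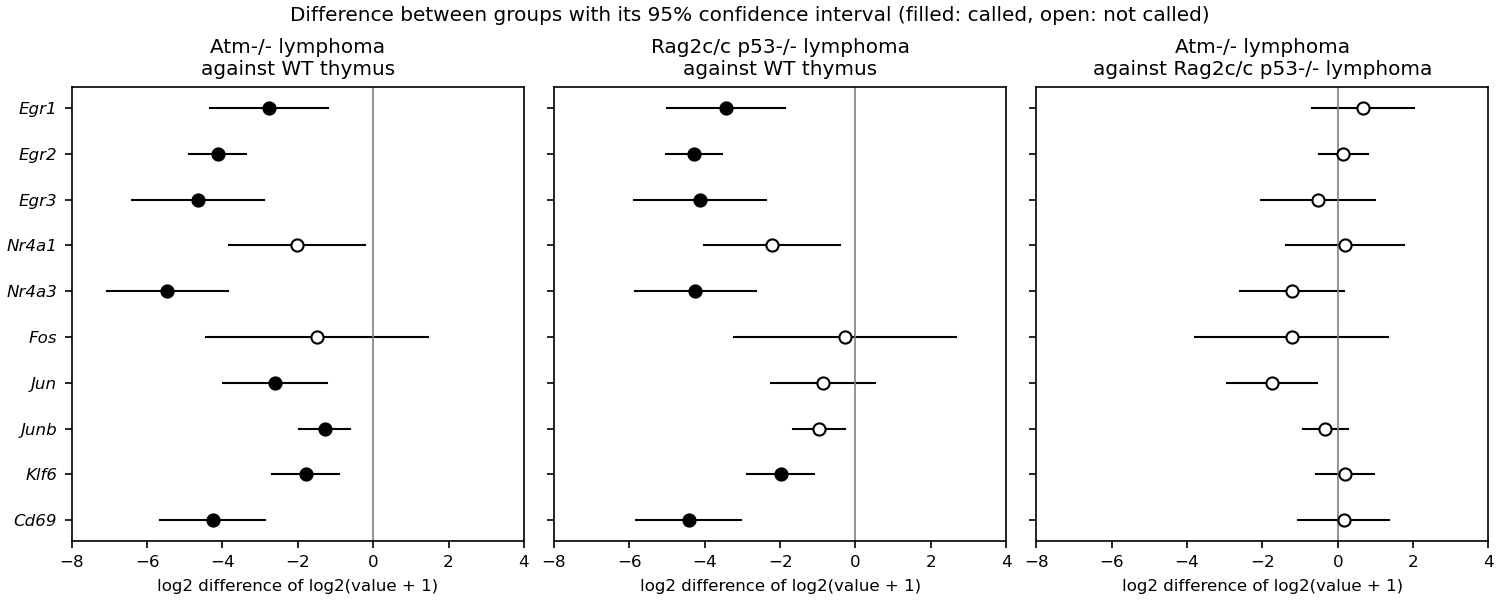
Log2 difference of log2(value + 1) for each of the 10 genes (rows) in 3 comparisons (panels), with 95% confidence intervals from limma, filled where called and open where not. All 10 estimates from the 13 libraries are below 0 in both comparisons with WT thymus, 8 and 6 of them called, while 0 of 10 were called between the lymphoma groups.

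By rank alone, all 5 Atm-/- lymphomas lay below all WT thymuses for 9 of the 10 genes, with Fos as the exception, where 27.9% of all tested genes had this pattern. All 5 Rag2c/c p53-/- lymphomas did so for 6 of the 10, where 24.2% of all tested genes did. All 10 lymphomas lay below all WT thymuses for the same 6 genes, Egr1, Egr2, Egr3, Nr4a3, Klf6 and Cd69, against 18.2% of tested genes.

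Between the lymphoma groups 0 of the 10 genes were called by limma, against 7.84% of all tested genes (3.51% higher and 4.33% lower in Atm-/- lymphomas), and the values of the groups overlapped for all 10. Only Jun had an unadjusted p under 0.05. It was lower in Atm-/- lymphomas by 1.74 on the log2 scale (95% confidence interval of the difference -2.93 to -0.54, limma adjusted p = 0.0592). The difference was -1.21 for Nr4a3 (95% confidence interval -2.60 to 0.18) and -1.22 for Fos (-3.78 to 1.34), which without Rag2c/c p53-/- replicate 3 was at 0.002. Egr2 had the interval nearest to 0, at 0.15 (-0.50 to 0.80). The intervals of the others reached at least 0.92 in size, so differences of that order were not detectable with 5 lymphomas a group. The Jun and Nr4a3 results rested on 1 library. Without Rag2c/c p53-/- replicate 2, the lowest of its group for both genes and the shallowest library, Jun was called at -2.31 ± 0.36 (limma adjusted p = 0.00175) and Nr4a3 at -1.87 ± 0.44 (limma adjusted p = 0.0165).

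The genes also differed between individual lymphomas of a group. Rag2c/c p53-/- replicate 3 was the highest of its group in 9 of the 10 genes, the exception being Jun, and exceeded all WT thymuses for Fos and Nr4a1. Even in that lymphoma, 6 of the 10 genes were below all WT thymuses. Rag2c/c p53-/- replicate 2 was the lowest of its group in 7 genes. Over the 10 genes, the median log2 difference of single lymphomas from the WT mean ran from -3.68 (replicate 3) to -1.70 (replicate 4) in the Atm-/- group and from -4.11 (replicate 2) to -1.24 (replicate 3) in the Rag2c/c p53-/- group. Among Atm-/- lymphomas, replicate 2 was highest for 5 genes and replicate 4 for 4, so no lymphoma led throughout.

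**Figure D3:**
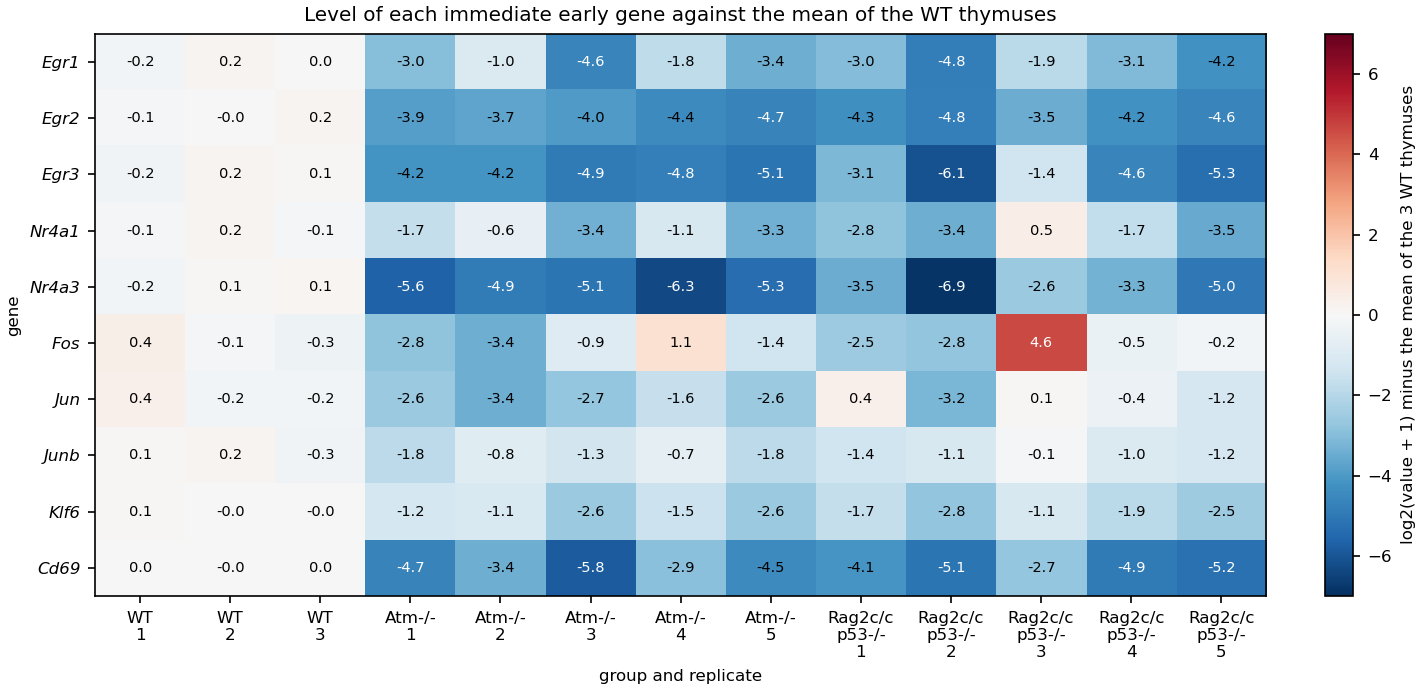
Log2(value + 1) of each gene (rows) in each library (columns, by group and replicate) minus the mean of the 3 WT thymuses, with blue for lower and red for higher and the value written in each cell. Blue fills nearly all lymphoma cells, and the strongest red is Fos in Rag2c/c p53-/- replicate 3.

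Levels of the 10 genes relative to each other were compared per kilobase of merged exons. Exon lengths came from a GENCODE annotation that is not the one of the table. Egr3 and Junb were divided by 4.406 and 2.301 kb, more than their whole spans in the table (chr14:70077445-70080157 and chr8:84976909-84978748). Their values per kilobase may therefore be too low, and the order of the genes is approximate. In WT thymus, Nr4a1 (1098 ± 145 normalized counts per kilobase, SD, n = 3), Junb (941 ± 145) and Egr1 (831 ± 106) led, and neighbours in this order differed by less than the sum of their SDs. Klf6 followed at 408 ± 21.4. Fos (273 ± 74.5), Egr2 (251 ± 29.6), Cd69 (239 ± 7.76), Jun (217 ± 52.2) and Nr4a3 (217 ± 22.3) were not separated from their neighbours in the same sense, and Egr3 was lowest at 62.7 ± 9.24. In Atm-/- lymphomas Junb (404 ± 150, n = 5) and Nr4a1 (357 ± 269) led, and Cd69 (15.6 ± 11.2) and Egr2 (14.5 ± 4.11), which were not separated, Nr4a3 (5.01 ± 1.78) and Egr3 (2.36 ± 0.76) were the lowest. The highest means in Rag2c/c p53-/- lymphomas were those of Fos (1397 ± 2841, n = 5, from the 1 library with 15233 normalized counts), Junb (505 ± 205) and Nr4a1 (441 ± 613). Nr4a3 (16.9 ± 13.4), Cd69 (14.1 ± 12.9), Egr2 (13.2 ± 5.21) and Egr3 (6.95 ± 9.62) were the lowest there, and neighbours among these did not differ by more than the sum of their SDs.

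Other genes of the pathway were read from lists of textbook members. Of 19 other immediate early genes, 18 were tested. In Atm-/- lymphomas 2 of them fell and 3 rose (median log2 difference -0.34), and in Rag2c/c p53-/- lymphomas 3 fell and 3 rose (median -0.32). These 5 and 6 of 18 stand beside 29.5% and 23.6% of all tested genes called, so the list did not stand out from the background by its count. Rel, an NF-kB subunit, fell in both (-2.77 ± 0.56 in Atm-/-, limma adjusted p = 0.00151, and -2.36 ± 0.56 in Rag2c/c p53-/- lymphomas, limma adjusted p = 0.00537). Fosl2, another FOS protein, fell in Atm-/- lymphomas (-1.80 ± 0.48, limma adjusted p = 0.00837). Irf4 and Maff fell in Rag2c/c p53-/- lymphomas (-2.44 and -1.58, limma adjusted p = 0.0248 and 0.0336), but both calls were lost when any 1 of the WT thymuses was left out (adjusted p up to 0.0851 and 0.102), and that of Maff also without Rag2c/c p53-/- replicate 1, 2 or 4.

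Myc, Ier3 and Atf3 rose in each comparison. Myc, a driver of growth and the most abundant of that list, was at 2495, 2985 and 2500 in WT thymus, at 5936 to 11860 in Atm-/- and at 5968 to 8055 in Rag2c/c p53-/- lymphomas. The log2 differences of Myc were 1.62 ± 0.20 (limma adjusted p = 4.9e-05) and 1.38 ± 0.20 (limma adjusted p = 0.000233). Ier3 rose by 1.82 and 1.63 (limma adjusted p = 0.00341 and 0.00797), and Atf3, a stress-induced factor, by 1.28 and 1.68 (limma adjusted p = 0.0281 and 0.00862). The call of Atf3 in Atm-/- lymphomas was lost without any 1 of the WT thymuses, Atm-/- replicate 1 or Atm-/- replicate 4 (adjusted p up to 0.108). Fosb, chosen here after its values were seen, had 197, 175 and 110 in WT thymus, 1070 in Atm-/- replicate 4 and 2144 in Rag2c/c p53-/- replicate 3, the libraries in which Fos was highest, and 26 to 319 in the other lymphomas.

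Feedback regulators, a list of genes that restrain signalling, transcription or mRNA stability, were all tested, 20 of 20. Whether TCR signals induce each of them was not checked here. In Atm-/- lymphomas 13 fell and 0 rose (median log2 difference -1.67), and in Rag2c/c p53-/- lymphomas 9 fell and 1 rose (median -0.97), beside 17% and 13.9% of all tested genes called lower. Spry2, an inhibitor of RAS signalling, fell in both (-4.58 ± 0.89, limma adjusted p = 0.00116, and -3.32 ± 0.89, limma adjusted p = 0.0103). Dusp6, the ERK phosphatase, was at 1370, 1270 and 1340 in WT thymus, at 151 to 361 in Atm-/- and at 128 to 350 in Rag2c/c p53-/- lymphomas. Its log2 differences were -2.52 ± 0.33 (limma adjusted p = 7.06e-05) and -2.77 ± 0.33 (limma adjusted p = 6e-05). Nab2, which binds EGR proteins and represses their activity, fell in both (-1.64 and -2.20), as did Rgs1 (-2.80 and -2.31) and Zfp36, which destabilises immediate early mRNAs (-2.08 and -1.90), with limma adjusted p between 0.00163 and 0.00956. Dusp1, a nuclear MAP kinase phosphatase, fell by 2.49 in Atm-/- lymphomas (limma adjusted p = 0.00375). It was not called in Rag2c/c p53-/- lymphomas (-1.03, limma adjusted p = 0.175), where replicate 3 had 2413 against 1016 to 1375 in WT thymus. Zfp36l2, the most abundant of the list, was not called (0.31 and 0.76, limma adjusted p = 0.649 and 0.27). Spry1 went the other way from Spry2. It stood at 173 to 198 in WT thymus, at 100 to 290 in Atm-/- and at 545 to 942 in Rag2c/c p53-/- lymphomas, where it rose by 1.81 ± 0.31 (limma adjusted p = 0.000655).

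Of 19 upstream kinases, phosphatases and transcription factors, 5 fell in the Atm-/- group, 4 fell in the Rag2c/c p53-/- group and 0 rose in either (medians -0.46 and -0.41). Of all tested genes 29.5% and 23.6% were called in either direction, and 17% and 13.9% were called lower. The counts of the list are near the first of these shares, but all of its calls were lower. In each comparison 15 of the 19 genes had a difference below 0, where 50.6% and 50.7% of all tested genes did. The list was not tested as a set. Rasgrp1, which couples the TCR to RAS, was at 15285, 19108 and 15889 in WT thymus and at 2016 to 8154 across the lymphomas. Its log2 differences were -1.97 ± 0.47 (limma adjusted p = 0.00466) and -2.13 ± 0.47 (limma adjusted p = 0.00373). Prkcq, the protein kinase C isoform of T cells, fell in both (-1.33 and -1.71, limma adjusted p = 0.0205 and 0.00651). Elk4, a partner of SRF, fell in both (-1.19 and -1.05), as did Nfatc3, the most abundant of the list (-1.09 and -1.06). Elk3 fell in Atm-/- lymphomas by 1.38 (limma adjusted p = 0.000723). Some of these calls rested on 1 library. That of Prkcq in Atm-/- lymphomas was lost without any 1 of the WT thymuses (adjusted p up to 0.0685), and that of Nfatc3 in the Atm-/- group without WT replicate 2 or 3 or Atm-/- replicate 2 (up to 0.0693). In the Rag2c/c p53-/- group Nfatc3 was lost without any 1 of the WT thymuses or without replicate 2 or 4 (up to 0.0894). Elk4 in Rag2c/c p53-/- lymphomas went under the fold threshold without WT replicate 3 (-0.98) or without Rag2c/c p53-/- replicate 4 (-0.96).

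Of 12 genes raised by TCR signals during thymocyte selection, 6 fell and 1 rose in Atm-/- lymphomas (median -1.36), and 5 fell and 1 rose in Rag2c/c p53-/- lymphomas (median -1.17), beside 17% and 13.9% of all tested genes called lower. Ccr7, the receptor that takes selected thymocytes to the medulla, fell in both (-3.64 ± 0.42, limma adjusted p = 2.97e-05, and -4.39 ± 0.42, limma adjusted p = 1.3e-05). Cd5, a surface protein that reports TCR signal strength, fell in both (-2.39 ± 0.73, limma adjusted p = 0.0173, and -2.60 ± 0.73, limma adjusted p = 0.0135). Tnfrsf9 (-3.60 and -3.31) and Itm2a (-1.68 and -1.47) also fell in both, Tox fell in Atm-/- lymphomas (-1.72) and Ikzf2 in Rag2c/c p53-/- lymphomas (-1.58). Nfil3 rose by 1.41 and 2.56 (limma adjusted p = 0.0139 and 0.000463). Without any 1 of the WT thymuses the calls of Cd5 in Atm-/- lymphomas (adjusted p up to 0.0554) and of Ikzf2 (up to 0.0956) were lost, and that of Nfil3 in Atm-/- lymphomas was lost without WT replicate 1 (0.0569). Ikzf2 was also lost without Rag2c/c p53-/- replicate 1 or 2. Gata3, the most abundant of the list, was not called (0.84 and 0.52).

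**Figure D4:**
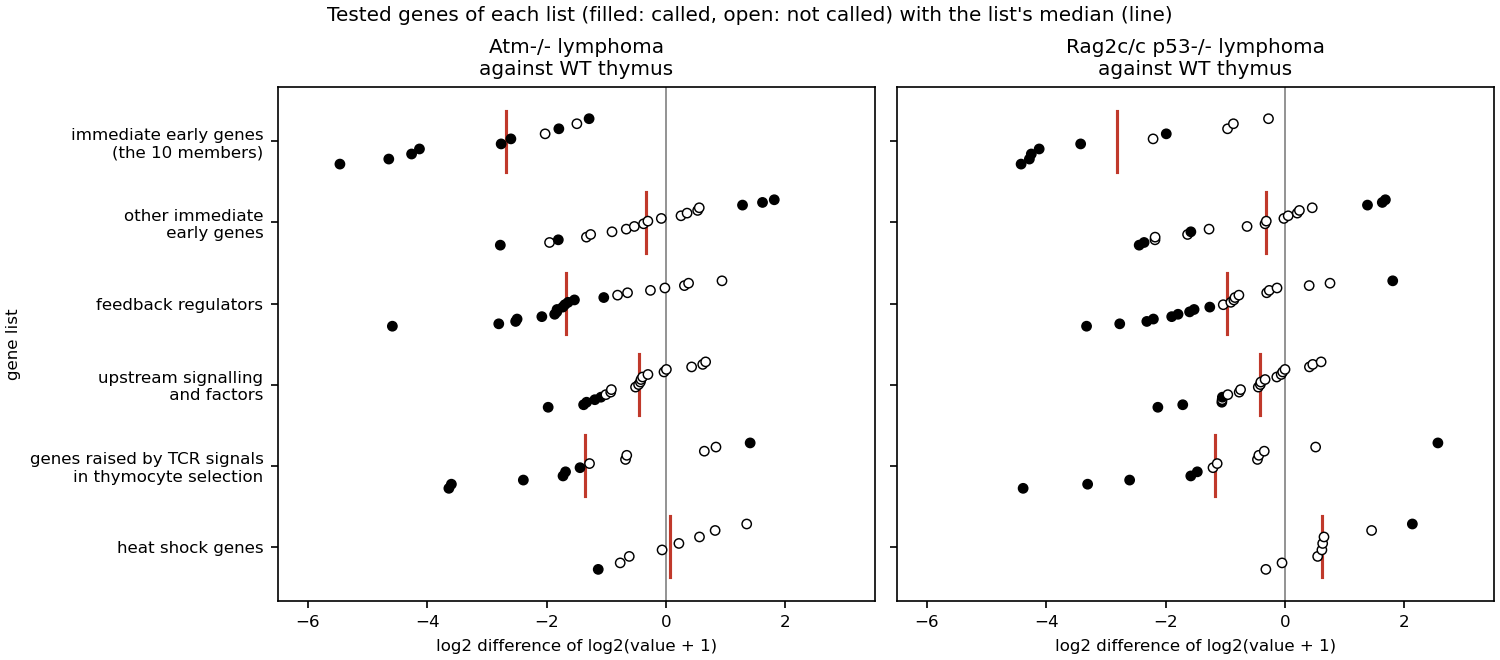
Log2 difference of log2(value + 1) from WT thymus for the tested genes of 6 lists (rows) in Atm-/- (left) and Rag2c/c p53-/- lymphomas (right), filled where called and open where not, with a red line at the median of the list. The medians of the 10 genes lie at -2.68 and -2.82, those of the other immediate early genes at -0.34 and -0.32.

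The counts of these lists moved with single libraries. Without Rag2c/c p53-/- replicate 3, 7 other immediate early genes and 11 feedback regulators were called lower in that group, and without any 1 of the WT thymuses 1 and 8 were. In Atm-/- lymphomas 4 other immediate early genes were called lower without Atm-/- replicate 4. Upstream genes called lower went down to 3 in Atm-/- lymphomas without WT replicate 2 or 3, and to 2 in Rag2c/c p53-/- lymphomas without WT replicate 3 or Rag2c/c p53-/- replicate 4. The 14 calls made among the 10 genes themselves against WT thymus all held whichever library was left out.

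Other cell types and stress genes were read in the same libraries. Fibroblast markers rose, 5 of 6 of them in the Atm-/- and 4 of 6 in the Rag2c/c p53-/- group, with a summed level of 204 to 218 in WT thymus, 3783 to 18172 in Atm-/- and 642 to 2336 in Rag2c/c p53-/- lymphomas. The highest sums of each group were in Atm-/- replicate 4 and Rag2c/c p53-/- replicate 3, the libraries with the highest Fos. Monocyte and macrophage markers summed to 3288 to 3634, 6145 to 10345 and 3610 to 7521, with 4 and 1 of 6 called higher. B cell markers fell, 5 of 6 in each group, with sums of 1576 to 1885, 199 to 325 and 219 to 554. Neutrophil markers fell, 4 of 6 in each group, with sums of 1481 to 2085, 146 to 252 and 54 to 318. Thymic epithelium markers summed to 725 to 1058, 189 to 609 and 287 to 1320, with 3 and 4 of 6 called lower, and Psmb11 was at 0 in every Atm-/- lymphoma. The sums of the Rag2c/c p53-/- group were mostly Epcam (22 to 875, against 221 to 283 in WT thymus) and Ccl25 (227 to 429, against 260 to 296). Krt5, Krt8, Psmb11 and Foxn1 had means of 16.8, 22.4, 0.2 and 3.6 there, against 108, 197, 83 and 28 in WT thymus. Endothelium markers summed to 3615 to 3724, 3188 to 6192 and 1823 to 5255, with 0 and 2 of 4 tested called lower. Pecam1 made up nearly all of these sums, at 3529 to 3660, 3036 to 6173 and 1809 to 5252. Cdh5 (means 28.3, 17.6 and 3.6) and Kdr (27.3, 9.4 and 3.6) had lower means in the lymphomas, and Vwf (5.67, 7.4 and 5.8) did not. Tek and Emcn were near 0 in WT thymus. Erythroid markers summed to 935 to 2128, 876 to 6147 and 794 to 4289, with 1 of 4 tested called higher in each group. The part of these cells in the levels of the 10 genes was not tested.

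Of 8 heat shock genes, which are induced by damaged proteins, 1 fell in Atm-/- lymphomas (Dnajb1, -1.13, limma adjusted p = 0.000221) and 1 rose in Rag2c/c p53-/- lymphomas (Hspa1a, 2.14, limma adjusted p = 0.0414). Their summed level was 28958 to 44067 in WT thymus, 28912 to 42463 in Atm-/- and 30840 to 70233 in Rag2c/c p53-/- lymphomas, the highest in replicate 4, and Rag2c/c p53-/- replicate 3 stood at 31412. The call of Dnajb1 was lost without WT replicate 2 (-0.99), and that of Hspa1a without WT replicate 1 or 2 or any of Rag2c/c p53-/- replicates 3, 4 and 5 (adjusted p up to 0.186). Hspa8, the most abundant, was not called (-0.06 and -0.05).

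Outside the set, the tested genes whose levels followed the 10 genes most closely over the 13 libraries, after centring each gene on its group means, were Scara3 (Pearson r = 0.957), Lyn (0.926), Relb (0.919), Amigo2 (0.915) and Gm13375 (0.913). Scara3 had 10 to 17 normalized counts in WT thymus, 1615, 3852, 70, 2613 and 80 in Atm-/- lymphomas and 19, 0, 702, 13 and 2 in Rag2c/c p53-/- lymphomas. Among the 10 genes, Nr4a1 (0.925) and Egr3 (0.901) followed the mean of the set most closely, and Jun (0.646) and Fos (0.642) least. That mean includes the gene itself, which raises r, so these values cannot be set beside those of the outside genes. These r values describe libraries that share depth and cell makeup, and they carry no test.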

How the data were processed

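RNA from single-cell suspensions of tumor or healthy thymus was sequenced from stranded polyA libraries. According to the submitters' processing notes and the study's methods, which are taken to hold for these lymphomas, reads were converted with bcl2fastq 1.8.3 and aligned to GRCm38 with STAR 2.4.0g1. Duplicates were removed with Picard, uniquely mapped reads were counted per gene with HTSeq-count, and counts were scaled with DESeq2 1.6.3. The deposited values are scores, namely normalized counts that the authors rounded to whole numbers, as read from the table. Whole reads were not recovered from the rounded values, so raw count tests were not run. Size factors recomputed from the 13 columns were 0.993 to 1.03, and 1 read was worth 0.5 to 3.38 normalized counts, as estimated from low values. Columns with the authors' means, fold changes, p-values and dispersions were not used. The table's overall mean is not that of the 13 columns, and which libraries entered the scaling is not given in the sources used here.

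limma 3.58.1 in R 4.3.3 was run on log2(value + 1), robustly moderated and with a trend of variance on level, with the 3 groups of 13 libraries sharing 1 estimate of the spread. Log2 differences are on the log2(value + 1) scale and understate changes of low genes. The test covered 15872 genes, those that reached 10 in 3 or more libraries. A run on simulated data is not taken as a check of the shared spread, because the groups differed in spread. For each of the 10 genes, the SD of log2 values was smaller among WT thymuses than within either lymphoma group. That of Cd69 was 0.047 among WT thymuses, against 1.149 (Atm-/-) and 1.056 (Rag2c/c p53-/-) among lymphomas. Each library came from a different mouse. A source label calls the WT samples thymic lymphoma, while their tissue and genotype labels call them wild type thymus, and the latter were used.

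The 10 genes and all lists were chosen with earlier results of these data known. From each list, up to the 5 largest called differences per comparison and the most abundant gene were named, as were the 5 genes of closest pattern. Motifs were searched on both strands in 250 bases before RefSeq starts, and the choice of TGACNTCA was made with the sequences in view. Python 3.11.15 and scipy 1.17.1 were used for the rest. Alternatives were other scalings, filters, pseudocounts, thresholds and moderation, a fit of only the 2 groups compared, and each library left out in turn.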

Additional observations from a re-analysis of the deposited data

Results flagged for a closer look

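Of 20 groups of 5 lymphomas (10 genes in 2 lymphoma groups), 6 held a library whose gap to the next was larger than Dixon's 95% critical ratio for 5 values, 0.71. Chance gives this in about 1 of 20 groups of normally distributed values, and these are normalized counts of genes that are not independent. On the log2(value + 1) scale 0 of the 6 exceeded that ratio, at 0.373 to 0.701. In 5 of the 6 cases the library was Rag2c/c p53-/- replicate 3. It had 104 normalized counts of Egr3 (next highest 30), 5346 of Nr4a1 (next 1168), 15233 of Fos (next 541), 1991 of Junb (next 1062) and 238 of Cd69 (next 88). The remaining case was Fos in Atm-/- replicate 4, at 1301 against 341 in the next lymphoma.

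Genes of the named lists that differed between the lymphoma groups were Spry1, at -1.82 on the log2 scale in Atm-/- relative to Rag2c/c p53-/- lymphomas (limma adjusted p = 0.000722), Hspa1a at -2.90 (limma adjusted p = 0.013) and Hspa1b at -2.07 (limma adjusted p = 0.024). Hspa1a and Hspa1b are near-identical copies, so reads between them are uncertain.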

How the results depend on the processing

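No called difference of a named or listed gene changed sign under any alternative (39 values of differences that were not called did), and none of the calls among the 10 genes was lost. The number of genes called was 4687 in Atm-/- lymphomas against WT thymus, 3750 in Rag2c/c p53-/- lymphomas against WT thymus and 1244 between the lymphoma groups. With no fold-change threshold the second became 5884, and with a mean of at least 50 over the 13 libraries the last became 793. With each library left out in turn, the counts ran from 3401 to 4902, from 2505 to 3956 and from 934 to 1315. Of the 10 genes, 8 to 9 were then called in Atm-/- lymphomas, 6 to 8 in Rag2c/c p53-/- lymphomas and 0 to 2 between the groups. Fitted with only the 2 groups compared, Nr4a1 was called in Atm-/- lymphomas (limma adjusted p = 0.0261), which made 9, and with no fold-change threshold Junb was called in Rag2c/c p53-/- lymphomas, which made 7.

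Of 61 calls among genes of the pathway and heat shock lists, 16 were lost without at least 1 library, and those of named genes are given with their values in the report. Hspa1b between the lymphoma groups was lost without Atm-/- replicate 1 or 4 or Rag2c/c p53-/- replicate 5 (adjusted p up to 0.0604). All of the 14 calls among the 10 genes held.

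No paired analysis was possible because the labels give no replicate numbers that link the groups. Depth limits Egr3 and Nr4a3 in Rag2c/c p53-/- replicate 2, where they rest on about 1 and 3 reads. Strain, library series, genotype and, against WT thymus, tumor state cannot be told apart.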
